A study of Mus musculus with 2 samples.

Results

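Notch1, Dll1 and Dll3 encode a receptor and its Delta ligands. A chromatin immunoprecipitation sequencing (ChIP-seq) list of anti-Flag signal over input, from cells with FLAG-tagged Msgn1, held 9 peaks near these genes out of 4087 in all. Peaks were taken where their midpoint lay within 100 kb of the mm9 positions chr2:26313-26359 kb for Notch1, chr17:15504-15513 kb for Dll1 and chr7:29078-29087 kb for Dll3, which are given to 1 kb. The window around Notch1 held 3 peaks, that around Dll1 held 4 and that around Dll3 held 2. The members were selected on the measured peak positions, for genes proposed with the peak list known, so the peak numbers, scores and ranks below describe these loci and support no test.

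The peaks came from A2lox FMsgn1 mouse embryonic stem cells, labelled C57BL/6, which carry a FLAG-tagged Msgn1 under doxycycline control. Embryoid bodies, the floating aggregates in which such cells differentiate, were grown for 2 days before 1 ug/ml doxycycline was added, and were fixed after a further 36 h. One library held DNA recovered with the anti-Flag M2 antibody and the other held input DNA from the same induced culture conditions, with no antibody. Each group had 1 library, both were induced, and no replicate error can be given for any value. The depth of the libraries is unknown from the peak list, and the tagged protein was expressed from an induced transgene.

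Mesogenin 1, or Msgn1, belongs to the basic helix-loop-helix (bHLH) transcription factors and works in presomitic mesoderm. That tissue lies at the back of the embryo and gives rise to the somites. Notch receptors and Delta ligands sit in the membranes of neighbouring cells. Binding of a ligand in trans leads to cleavage of the receptor, and its freed intracellular domain enters the nucleus and acts with the DNA-binding protein Rbpj on targets such as the Hes genes. In the presomitic mesoderm this pathway is part of the segmentation clock and helps to set somite borders. Notch1 is the receptor, Dll1 is an activating ligand, and Dll3 is a divergent Delta protein that does not activate Notch in trans and is known to act within the cell that makes it. Dll3 is the gene mutated in the pudgy mouse, which has a malformed spine.

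The 3 genes lie on the minus strand in RefSeq, so upstream of each gene means higher coordinates. Of the 9 peaks, 7 had their midpoint on the 5′ side of the gene, 2 lay inside Notch1, and 0 lay in the 100 kb on the 3′ side of any of the 3 genes. The share of all peaks on each side of genes was not computed. Peaks at 1 locus are also not separate observations, and 4 of the 7 are at Dll1, so no preference for the 5′ side is read from this split. The 7 upstream peaks lay 0.5 to 64.6 kb from the 5′ end, and 3 of them within 10 kb. Distances to a gene end carry the rounding of the gene position to 1 kb, or about 0.5 kb either way. Whether a peak falls in an exon, an intron or a UTR was not analysed here, since no mm9 annotation was used.

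**Figure D1:**
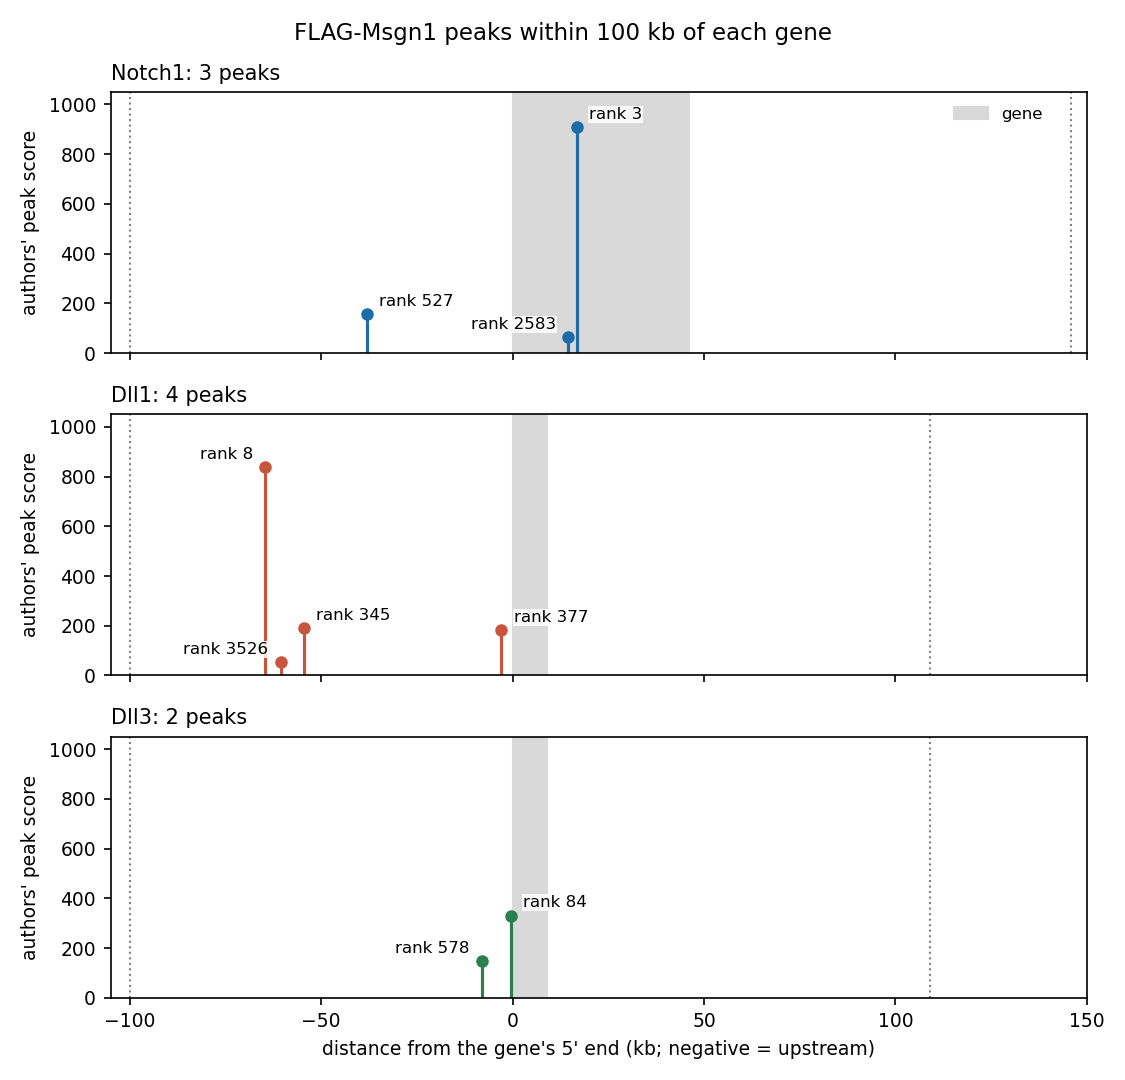
Peaks near Notch1, Dll1 and Dll3, by distance of the midpoint from the gene's 5′ end in kb (horizontal, upstream to the left) and by the authors' score (vertical). The grey band is the gene, dotted lines mark the ends of the window, and labels give the rank among 4087 peaks; the highest point at Notch1 is inside the gene, that at Dll1 is 64.6 kb upstream, and that at Dll3 is at the 5′ end.

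The sequence just upstream of each gene is shown because the loci differ in how near a peak comes to it. A peak began at the 5′ end of Dll3 to within rounding, the nearest peak to Dll1 began 2.64 kb upstream of its 5′ end, and the nearest to Notch1 lay inside the gene with its midpoint 14.6 kb from the 5′ end. The 250 bases upstream of each RefSeq start are of build GRCm38.p6, in which positions differ from those of the mm9 peaks and cannot be set against them. Capitals mark the E-box CANNTG, the element that bHLH proteins recognise. CANNTG reads as CANNTG on the other strand too, so 1 scan covers both, and overlapping matches were allowed. RefSeq lists 2 starts for Dll1, 1.11 kb apart, and both are shown. The Dll3 sequence is chr7:28301786-28302035, the Dll1 sequences are chr17:15376933-15377182 (start 1, farther upstream) and chr17:15375824-15376073 (start 2), and the Notch1 sequence is chr2:26503823-26504072, all printed 5′ to 3′ on the minus strand.
Dll3: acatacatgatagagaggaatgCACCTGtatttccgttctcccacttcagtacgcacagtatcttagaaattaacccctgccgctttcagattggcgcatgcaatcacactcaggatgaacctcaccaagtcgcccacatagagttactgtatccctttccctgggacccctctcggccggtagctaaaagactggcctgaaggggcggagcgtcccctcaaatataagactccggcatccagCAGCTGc
Dll1 start 1: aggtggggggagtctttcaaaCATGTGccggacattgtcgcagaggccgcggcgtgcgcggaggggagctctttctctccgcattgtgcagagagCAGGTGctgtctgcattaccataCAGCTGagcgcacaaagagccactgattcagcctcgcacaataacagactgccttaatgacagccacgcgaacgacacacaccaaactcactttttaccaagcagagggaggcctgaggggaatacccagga
Dll1 start 2: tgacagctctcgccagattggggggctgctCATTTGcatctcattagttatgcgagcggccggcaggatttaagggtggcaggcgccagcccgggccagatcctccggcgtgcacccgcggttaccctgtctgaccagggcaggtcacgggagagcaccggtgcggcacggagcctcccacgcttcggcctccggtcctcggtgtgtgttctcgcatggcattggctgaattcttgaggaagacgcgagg
Notch1: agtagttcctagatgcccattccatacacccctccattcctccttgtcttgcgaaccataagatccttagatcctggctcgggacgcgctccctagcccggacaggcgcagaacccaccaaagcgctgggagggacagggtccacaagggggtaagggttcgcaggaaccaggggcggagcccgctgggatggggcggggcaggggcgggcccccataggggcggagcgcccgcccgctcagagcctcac

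The upstream sequence of Dll3 held 2 E-boxes. One was CACCTG, at bases 228 to 223 upstream of the start, and the other was CAGCTG, at bases 7 to 2 upstream, next to the start itself. The sequence at Dll1 start 1 held 3, namely CATGTG at 229 to 224, CAGGTG at 155 to 150 and CAGCTG at 132 to 127 bases upstream. Start 2 of Dll1 held 1, CATTTG, at 220 to 215 bases upstream. The Notch1 sequence held 0 matches to CANNTG, which says only that these letters are not in that window.

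E-boxes are common in sequence of this kind. Among 32851 RefSeq promoters of the same 250-base length, 66.2% held at least 1 CANNTG, 31.8% held 2 or more and 12.2% held 3 or more. CAGCTG was in 13.0% of them. On either strand, CAGGTG was in 17.2%, CATGTG was in 12.3% and CATTTG was in 12.0%. CACCTG is the other strand of CAGGTG and is counted with it. Of 21 other Notch pathway genes listed, among them receptors, ligands, fringe genes, Rbpj and Hes and Hey genes, 15 had such a promoter. A CANNTG was found for 10 of those 15 genes. CAGCTG was found for 2 of them and, on either strand, CAGGTG for 4, CATTTG for 2 and CATGTG for 0. A gene was counted if any of its promoters matched, whereas the percentages above count single promoters, so the 2 kinds of share are not alike. These matches are a description of letters and not of bound sites. The peaks near those 21 genes were not analysed here, since mm9 positions were used for Notch1, Dll1 and Dll3 alone.

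At the receptor gene, the third-ranked peak of the whole list lay inside Notch1. This peak, chr2:26341867-26342806, was 940 bp wide, had the authors' score of 908, and its midpoint was 16.7 kb downstream of the 5′ end of a gene that spans 46 kb. A second and weaker peak, chr2:26344115-26344744, also lay within the gene, 14.6 kb from the 5′ end. It was 630 bp wide, scored 63.6 and ranked 2583rd. A stretch of 1.31 kb separated the pair, and 77 of the 4067 pairs of neighbouring peaks in the list (1.89%) were as close or closer. The third Notch1 peak, chr2:26396683-26397473, stood apart from this pair, 51.9 kb beyond it and 38.1 kb upstream of the 5′ end. It was 791 bp wide, scored 156 and ranked 527th.

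The pair inside Notch1 thus joined a peak from the top of the list with one that scored lower than the list's median of 72.8. The peak upstream of the gene scored between them. The protein-coding gene next to Notch1 on the 5′ side in RefSeq is Egfl7, and that on the 3′ side is Sec16a. A peak upstream of Notch1 may be as near to another gene, and the list assigns no peak to a gene.

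At the activating ligand gene, Dll1, all 4 peaks were upstream and the strongest was the farthest. The upstream region of mouse Dll1 is known to hold elements that drive its expression in paraxial mesoderm and in the nervous system, although none of the peaks was compared with those elements. The peak nearest the gene, chr17:15515639-15516460, was 822 bp wide, scored 182 and ranked 377th. Its midpoint was 3.0 kb upstream of the 5′ end given for Dll1. That position may be either of the 2 RefSeq starts, which adds 1.11 kb of uncertainty to this distance and to the others at Dll1.

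The other 3 Dll1 peaks formed a group more than 50 kb farther out. The first of them, chr17:15567069-15568093, lay 54.6 kb upstream, was 1025 bp wide, scored 190 and ranked 345th. The second, chr17:15573368-15573870, lay 60.6 kb upstream and was the weakest and narrowest of the 9 peaks, at a score of 53.8, rank 3526 and 503 bp. The third, chr17:15577098-15578149, lay 64.6 kb upstream, was 1052 bp wide, scored 837 and ranked 8th in the list. The group was compact, with gaps of 5.27 kb and 3.23 kb between its peaks, while 50.6 kb separated it from the peak near the gene. Gaps of at most 5.27 kb made up 4.60% of all neighbouring pairs, those of at most 3.23 kb made up 3.42%, and those of at most 50.6 kb made up 17.2%.

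The weakest Dll1 peak thus lay between a pair of stronger ones. From the first to the last, the 4 Dll1 peaks together spanned 62.5 kb. The next protein-coding gene on the 5′ side of Dll1 in RefSeq is Fam120b, and whether the outer 3 peaks lie within or beyond it was not analysed here. The neighbour on the 3′ side is Ermard.

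At Dll3, both peaks lay near the 5′ end. The stronger, chr7:29087082-29087922, began 0.08 kb past the 5′ end given for Dll3, which is less than the rounding of that position, and reached 0.92 kb upstream. It was 841 bp wide, scored 331 and ranked 84th. Whether it covers the start of transcription, with the CAGCTG shown above, cannot be told at this resolution. The weaker peak, chr7:29094625-29095240, lay 7.9 kb upstream, was 616 bp wide, scored 147 and ranked 578th. A gap of 6.70 kb separated the pair, and 5.36% of neighbouring pairs in the list were as close or closer. The gene next to Dll3 on the 5′ side in RefSeq is Timm50, a subunit of the mitochondrial import machinery, so the same peak is also on the Timm50 side of Dll3. Its neighbour on the 3′ side is Selenov.

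The 3 loci therefore differed in where their strongest peak lay, which was inside Notch1, at a distance upstream of Dll1 and at the 5′ end of Dll3. They also differed in how far the peaks spread, over 55.6 kb at Notch1, 62.5 kb at Dll1 and 8.2 kb at Dll3. Peaks covered 2361 bp of the Notch1 window (0.960%), 3402 bp of the Dll1 window (1.63%) and 1457 bp of the Dll3 window (0.697%). The Notch1 window was 246 kb long, and those of Dll1 and Dll3 were 209 kb. The share of the genome under peaks was not computed, and the windows were chosen for their peaks, so nothing is read from these shares.

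In rank, the 9 peaks ran from 3rd to 3526th of 4087. Their median score was 182, against 72.8 over all 4087 peaks. Of the 9, 7 scored 100 or more, as did 28.6% of the list. At 200 or more there were 3 of the 9 and 7.41% of the list, and at 400 or more there were 2 of the 9 and 1.37%. The loci were proposed with the highest-ranked peaks known, so nothing is read from these shares. The 2 peaks below the list's median were each the close neighbour of a peak among the 10 highest, the one in Notch1 1.31 kb from the third-ranked peak and the one upstream of Dll1 3.23 kb from the eighth-ranked. How often such pairs occur in the list was not counted, and the same choice of loci favours them, so nothing is read from this either. No listed score lies below 50, so weaker enrichment elsewhere in these windows would not appear.

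**Figure D2:**
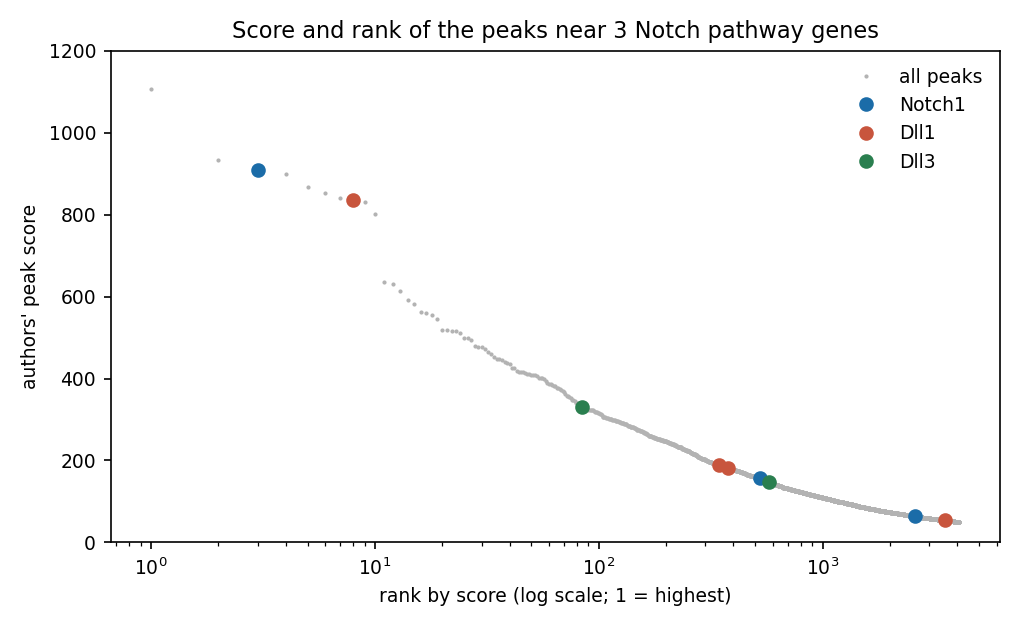
Authors' score (vertical) against rank by score (horizontal, log scale) for all 4087 peaks in grey, with the 9 peaks near Notch1, Dll1 and Dll3 in colour. The best Notch1 and Dll1 peaks, at ranks 3 and 8, sit above the drop that follows rank 10, the best Dll3 peak is at rank 84, and the lowest coloured point is a Dll1 peak at rank 3526.

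In width, the 9 peaks ran from 503 to 1052 bp with a median of 822 bp, and the whole list from 296 to 3503 bp with a median of 678 bp. Of the 9, 6 were wider than the list's median. The widest were the Dll1 peaks of 1052 bp and 1025 bp, which 96.4% and 95.3% of the list fell short of. The third-ranked peak, in Notch1, was 940 bp wide and 411th by width, wider than 89.8% of the list. The Dll3 peak of 616 bp scored 147 and was nonetheless narrower than the Notch1 peak of 630 bp, which scored 63.6. Width and score come from the same peak calling and are not independent.

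**Figure D3:**
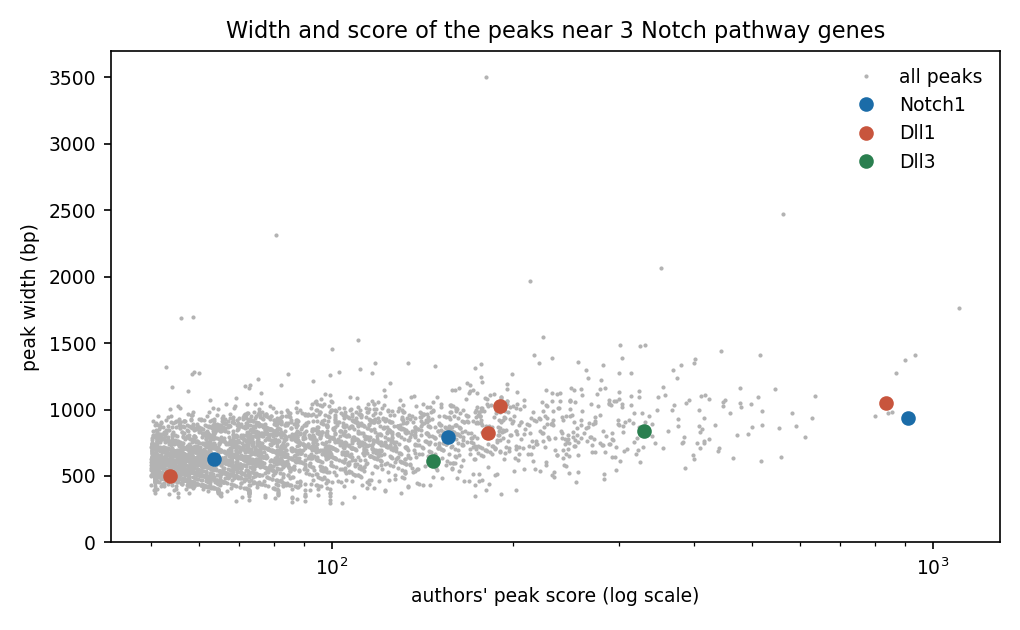
Peak width in bp (vertical) against the authors' score (horizontal, log scale) for all 4087 peaks in grey and the 9 peaks near Notch1, Dll1 and Dll3 in colour. The coloured points lie between 503 and 1052 bp, and the widest of them ranks 148th by width in the list.

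In spacing, each of the 9 peaks had at least 1 other peak with its midpoint within 100 kb, which 45.6% of all peaks had. At least 2 others were found for 7 of the 9 and for 17.8% of the list, and at least 3 for the 4 Dll1 peaks and 6.53% of the list. The nearest peak was at most 10 kb away for 7 of the 9 and for 11.8% of the list. It was at most 1 kb away for 0 of the 9 and for 3.28% of the list. Peaks that share a window are counted as neighbours of each other, so these counts are not separate observations, and the choice of loci with several peaks fixes their direction.

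**Figure D4:**
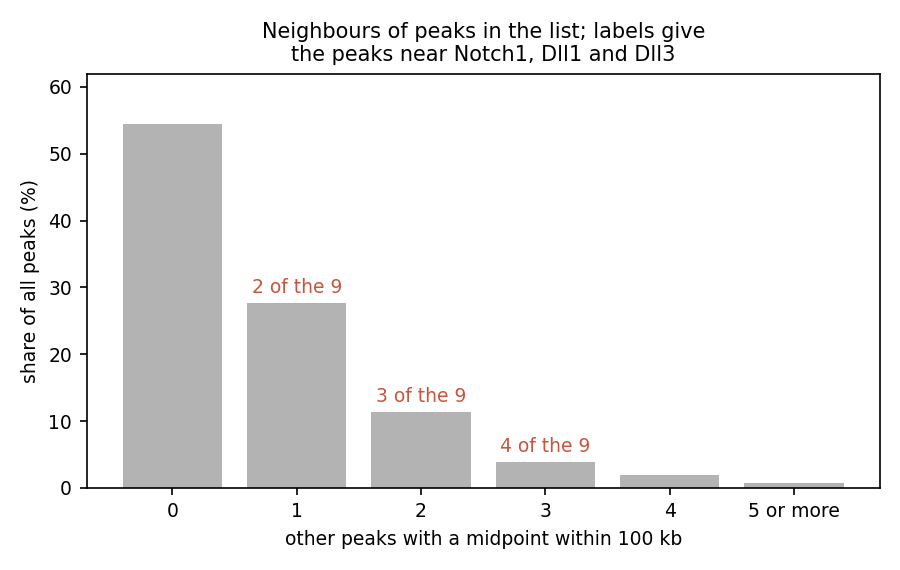
Share of all 4087 peaks (vertical, %) by the number of other peaks with a midpoint within 100 kb (horizontal), with the number of the 9 peaks in each class written above the bar. In the list, 54.4% had 0 such neighbours, while the Dll3 peaks had 1 each, the Notch1 peaks 2 each and the Dll1 peaks 3 each.

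For a view of how many peaks a stretch of this length holds, each autosome was divided end to end from its first listed peak to its last. With any shorter remainder left out, this gave 11333 stretches of 209 kb, the window length of Dll1 and Dll3. At least 1 peak was in 26.1% of them, at least 2 in 6.85%, at least 3 in 1.82% and at least 4 in 0.485%, and the fullest held 6. The first stretch of each autosome holds a peak by construction, and chromosome ends beyond the outermost peaks are not counted. Stretches were laid without regard to genes or assembly gaps, and the windows were chosen for their peaks, so these shares are a scale and not a comparison.

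No peak lay near an edge of the windows. The peak farthest from its gene was the eighth-ranked one, 64.6 kb upstream of Dll1. At Notch1 the farthest lay 38.1 kb upstream and at Dll3 7.9 kb upstream. The first peaks outside were at least 240 kb from a gene. Downstream, the next peak after Dll1 was 240 kb away with a score of 57.9, that after Notch1 was 282 kb away with 67.5, and that after Dll3 was 671 kb away with 72.2. Upstream, the next was 449 kb from Dll1 with a score of 53.4, 522 kb from Dll3 with 87.2 and 601 kb from Notch1 with 203. On the 3′ side these first peaks all scored lower than the list's median.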

How the data were processed

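Peaks of the FLAG library over input were deposited by the authors as 1 list without a header, with chromosome, start, end, name and score. The peak names show MACS as the caller. CASAVA 1.4, FastQC and the build mm9 are listed in the submitters' processing notes. Not given in the sources used here are the aligner, filters and caller settings. The score is the authors' value per peak, on a scale the deposited file does not state, and was used to rank, filter and describe peaks. Starts were read as 0-based and are printed 1-based, and the other deposited values are positions in bases.

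Members, gene lists and motifs were chosen with earlier results of these data known. The rule named Notch1, Dll1, Dll3 and every peak with a midpoint within 100 kb of them; gene positions came with that rule, and strand, neighbouring genes and promoter sequences from RefSeq (GRCm38.p6). Symbols of 3 of the 3 genes matched. Ranks count from the highest score. With 1 library per group no test was made. The window, neighbour and joining functions were tested on simulated data. Alternatives were other windows, score limits, overlap and joining of close peaks. Calculations used Python 3.11.15, numpy 2.4.6 and pandas 2.3.3, and figures matplotlib 3.10.9.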

Additional observations from a re-analysis of the deposited data

How the results depend on the processing

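Window size mattered at Dll1 alone among the 3 genes. Within 50 kb of the gene, Dll1 kept 1 of its 4 peaks, and the highest score there was 182 in place of 837, since the other 3 peaks lie more than 50 kb upstream. Among the 500 highest-scoring peaks, Notch1 kept 1 peak of 3, Dll1 kept 3 of 4 and Dll3 kept 1 of 2. At a score of at least 100 the numbers were 2, 3 and 2. Windows of 200 kb, any overlap in place of the midpoint, and joining of peaks less than 1 kb apart gave 3, 4 and 2 again. The peak numbers stayed within 1.5 times the number reported in 15 of 18 combinations of gene and alternative, and the highest score was the same in 17 of 18. That score had little room to change. The best peaks ranked 3rd, 8th and 84th and so pass both score filters. None of the reported peaks had another within 1 kb, and no further peak lay within 200 kb of a gene. Only the 50 kb window could move the highest score, so the 17 of 18 is no sign of robustness. These alternatives reuse 1 list. No paired analysis was possible because each group has 1 library, and for the same reason no replicate could be left out. Depth could not be judged from the list, and no uninduced or untagged library was used here, so signal of the antibody without the tagged protein cannot be told apart from Msgn1 occupancy.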
